A study of Mus musculus with 3 samples.

Results

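The genes described here are 10 markers of disease-associated microglia, Clec7a, Itgax, Axl, Cd9, Cst7, Gpnmb, Lpl, Spp1, Igf1 and Lgals3, chosen by name out of 50262 genes in the count table. Earlier results of these data were known at that point, so that counts of the 10 beside shares of all genes are descriptions. They were followed in 5350 microglia and 461 macrophages or monocytes of the CD45+ sort, out of 20811 cells in the series. Microglia were CD45+ cells with at least 5 unique molecular identifiers (UMIs, 1 for each captured mRNA molecule) of P2ry12, Tmem119 and Gpr34 together. These 3 gate genes mark microglia at rest and are not among the 10. Macrophages or monocytes had at least 5 UMIs of 10 other markers such as Ccr2, Ms4a7 and Tgfbi, at least 2 of them from a selective set of 5, and at most 1 UMI of the microglia gate. Levels are given in CPM, a gene's UMIs summed over the cells of a class per 1000000 UMIs of these cells.

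The cells came from mouse gliomas driven by wild-type human EGFR, a growth factor receptor, and were profiled on the inDrop droplet platform at an early, a medium and a large stage of growth. The large stage is called late. All stages share the same model: human EGFR that is switched on by Cre, loss of Cdkn2a and a luciferase reporter for growth, with tumors started by a Cre lentivirus injected into the brain of mice of mixed background. The methods describe a Cre vector with and one without TGFA, and which one started these tumors is not given in the sources used here. Loss of Cdkn2a is constitutive, so that the leukocytes carry it too, while EGFR changes in cells that took up the virus. Each stage is 1 tumor sample, the early one pooled from 2 samples, so that stages were compared without a test. Its 4 libraries for each sort are technical repeats spread over 3 sequencing runs. Tumor-free brain was not analysed here.

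Disease-associated microglia are a state found around amyloid plaques, in demyelinated lesions and in the aging brain. Genes of lipid uptake, lysosomes and phagocytosis are high in it and genes of resting microglia are low, and the lipid receptor Trem2 with its ligand Apoe takes part in the switch. Several of its genes are also used by macrophages that come from blood.

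After filtering, 17894 cells were left. The CD45+ sort held 5110 early, 3988 medium and 2120 late cells with 10861862, 9743544 and 5406440 UMIs. Microglia numbered 3648, 791 and 911, with median depths of 2030.5, 1945 and 2026 UMIs per cell, and macrophages 52, 318 and 91. A further 1030, 2181 and 923 CD45+ cells passed no gate. The classes matched their markers. Sall1, a transcription factor of microglia outside the gate, had 211, 161 and 224 CPM in early, medium and late microglia and 0, 2.26 and 7.02 CPM in macrophages. All 10 macrophage markers were found in microglia of each stage, summing to 154, 335 and 246 CPM, against 5951, 5044 and 3395 CPM in macrophages. Since these markers set the macrophage gate, their level in macrophages is no separate support for the classes. Markers of neutrophils, 8 of 8 found, summed to 422, 4026 and 1519 CPM in microglia of the same stages, and their part in the levels below was not tested. Neutrophils needed at least 50 UMIs of their markers, and S100a9, a neutrophil gene, had a UMI in 7.80% of 3745 other medium CD45+ cells. Whether this came from free RNA was not tested. Xist, which is read from the inactive X chromosome of females, had 302 CPM in early but 2.67 and 1.11 CPM in medium and late CD45+ cells, so that stage, animal and sex cannot be told apart. Run 1 held 25 late microglia, and 4593 of all cells shared a barcode with a cell of another library.

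The 10 genes fall into 3 roles. Surface proteins are Clec7a, a receptor for fungal glucans (ENSMUSG00000079293, chr6:129461591-129472779 of GRCm38), Itgax, the integrin chain CD11c (ENSMUSG00000030789, chr7:128129547-128150657), Axl, a receptor kinase for the uptake of dying cells (ENSMUSG00000002602, chr7:25757273-25788705), and the tetraspanin Cd9 (ENSMUSG00000030342, chr6:125460266-125494791). Genes of lysosomes and lipids are Cst7, an inhibitor of cathepsins (ENSMUSG00000068129, chr2:150570415-150578944), Gpnmb, a glycoprotein of lysosomes and membranes (ENSMUSG00000029816, chr6:49036546-49070929), and the lipase Lpl (ENSMUSG00000015568, chr8:68880491-68907448). Secreted proteins are the matrix protein Spp1, or osteopontin (ENSMUSG00000029304, chr5:104435118-104441050), the growth factor Igf1 (ENSMUSG00000020053, chr10:87858265-87937042) and the galectin Lgals3 (ENSMUSG00000050335, chr14:47367751-47386160).

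Since several of these genes were found in the same cells, as described below, their promoters were searched for letters that are bound by factors of microglia and lysosomes. RefSeq promoters of GRCm38.p6 were matched for 9 of the 10 genes, all but Lpl, over 250 bases before and 50 after the start. The letters GGAAGT, a core of PU.1 and other ETS factors, were found on either strand in Itgax, Cst7 and Spp1, 3 of 9, against 24.1% of 27025 promoters. TGACTCA, an AP-1 site, was found in Itgax and, 8 bases past the start, in Gpnmb, 2 of 9 against 5.17%. CATGTG was found in Cd9 alone, 1 of 9 against 14.1%, and CACGTG and its longer form TCACGTG, which MITF and TFEB bind, in 0 of 9 against 7.24% and 3.84%. The 250 bases before the start of the 3 genes that share GGAAGT are shown 5′ to 3′ on the plus strand, at chr7:128129300-128129549, chr2:150570165-150570414 and chr5:104434861-104435110, with matches in capitals (the TGAGTCA and ACTTCC of Itgax are TGACTCA and GGAAGT of the other strand).
Itgax: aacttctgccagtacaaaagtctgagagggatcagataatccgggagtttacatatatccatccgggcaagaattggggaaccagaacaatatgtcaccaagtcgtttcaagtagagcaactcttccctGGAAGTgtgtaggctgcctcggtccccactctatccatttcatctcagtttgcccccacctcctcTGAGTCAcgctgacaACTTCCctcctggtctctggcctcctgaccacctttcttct
Cst7: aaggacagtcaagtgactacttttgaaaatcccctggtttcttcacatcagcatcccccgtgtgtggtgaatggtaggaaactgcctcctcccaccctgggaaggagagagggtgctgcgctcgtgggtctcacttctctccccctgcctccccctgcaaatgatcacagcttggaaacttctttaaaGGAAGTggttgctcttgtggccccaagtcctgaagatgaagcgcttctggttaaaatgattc
Spp1: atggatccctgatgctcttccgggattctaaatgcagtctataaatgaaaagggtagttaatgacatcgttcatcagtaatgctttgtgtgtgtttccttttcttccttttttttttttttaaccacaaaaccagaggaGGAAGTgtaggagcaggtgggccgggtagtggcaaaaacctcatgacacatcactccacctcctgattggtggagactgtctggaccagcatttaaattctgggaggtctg
These matches are descriptions of the letters in 1 listed start per gene, and binding was not measured.

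Microglia were first compared across stages. Of the 10 genes, 9 were at least 2-fold higher in late than in early microglia, where 7.38% of 16480 genes were, and the median log2 ratio was 2.29, against 0.11 for all genes. Spp1 had 7.24, 87.5 and 269 CPM in early, medium and late microglia. Cd9 alone did not follow, with 853, 1049 and 760 CPM. In medium over early microglia 8 of the 10 were at least 2-fold higher, against 7.45% of 16301 genes, with a median log2 ratio of 2.19 against -0.05.

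**Figure D1:**
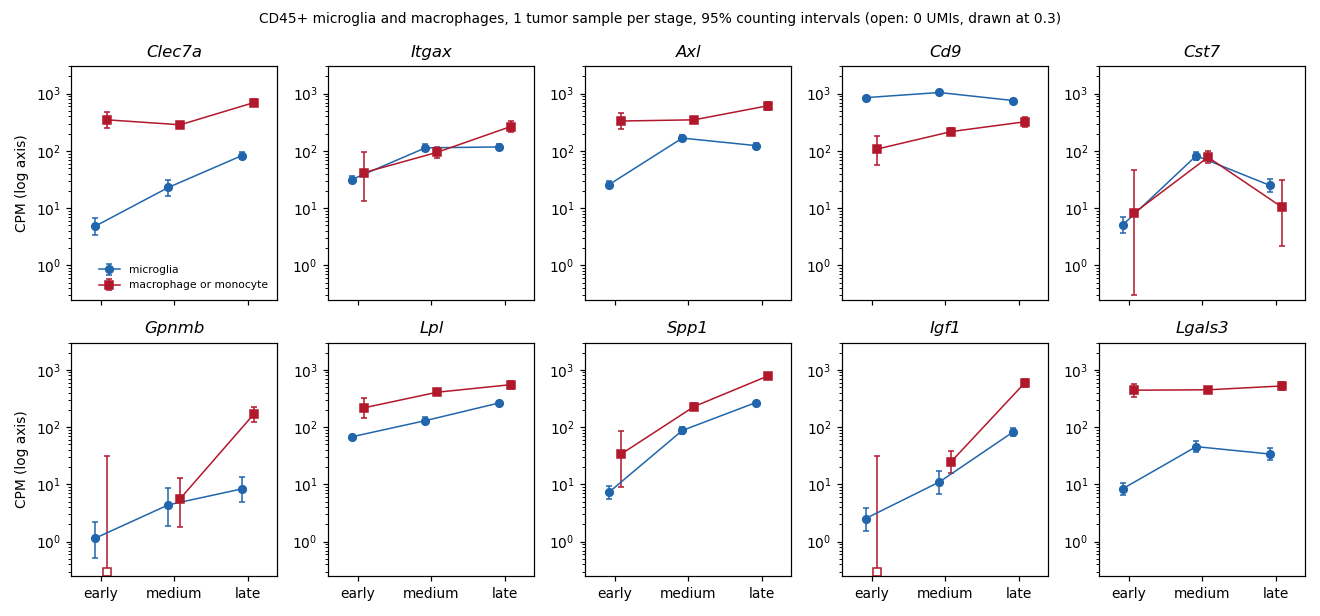
Levels of the 10 genes in CPM (log axis) in CD45+ microglia (blue circles) and macrophages or monocytes (red squares) of the early, medium and late tumor samples, with 95% Poisson intervals of the counts. Spp1, Igf1 and Clec7a span the widest range in microglia, from 7.24, 2.54 and 4.82 in early to 269, 81.8 and 83.2 in late cells, while Cd9 lies between 760 and 1049.

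Among the secreted proteins, the log2 ratio of late over early microglia was 5.20 for Spp1 (95% interval of the counts 4.82 to 5.64). Its values within run 2 and run 3 were 4.34 and 5.67. Igf1, which acts on the survival and growth of many cells, had 2.54, 11.0 and 81.8 CPM, a late over early log2 ratio of 4.98 (4.34 to 5.76). The intervals of Spp1 and Igf1 overlapped, and their order depended on the setting, since with the second gate described below Igf1 had 5.31 and Spp1 4.53. Lgals3, which binds glycans at damaged lysosomes, had 8.38, 45.7 and 33.9 CPM, with 2.02 (1.52 to 2.52) for late over early and an interval from -0.90 to 0.04 for late over medium. Of the 3 secreted genes, Spp1 and Igf1 were thus highest in the late sample. Lgals3 differed between the medium and the late sample by less than counting error, so that its highest stage is not resolved. Igf1 rested on 20 UMIs in early and 20 in medium microglia. Its medium over early ratio was unstable, since the 122 medium microglia of run 1 had 0 Igf1 UMIs, and with cells thinned to 1000 UMIs the log2 ratio was -0.14 in place of 2.12.

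Among the surface proteins, Clec7a had 4.82, 23.1 and 83.2 CPM in early, medium and late microglia. Its late over early log2 ratio was 4.09 (3.60 to 4.65), and 4.20 and 3.58 within runs 2 and 3. Itgax had 31.7, 113 and 118 CPM and Axl 25.6, 168 and 124 CPM, so that both had most of their difference between the early and the medium sample. For Itgax the late over medium log2 ratio was 0.05 with an interval from -0.22 to 0.33, and for Axl it was -0.44 (-0.68 to -0.19). Cd9, which most cell types of the brain express, was found in 61.7%, 63.0% and 58.0% of microglia, whereas each of the other 9 genes was found in at most 15.7% of the cells of a stage. Its late over early log2 ratio was -0.17 (-0.25 to -0.09).

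Of the genes of lysosomes and lipids, Cst7 had 5.08, 82.5 and 25.1 CPM in early, medium and late microglia. It was the only one of the 10 at least 2-fold lower in late than in medium microglia, with a log2 ratio of -1.71 (-2.19 to -1.26) and -2.27 and -2.37 within runs 2 and 3, where 5.09% of 13880 genes were as much lower. In the same comparison 4 of the 10, Clec7a, Lpl, Spp1 and Igf1, were at least 2-fold higher, against 8.7% of genes. Lpl, which frees fatty acids from lipoproteins, had 67.8, 130 and 264 CPM. It was the most abundant of the 9 genes besides Cd9 in early microglia, and its late over early log2 ratio was 1.96 (1.79 to 2.13). Gpnmb was the scarcest, with 1.14, 4.40 and 8.36 CPM from 9, 8 and 18 UMIs, a log2 ratio of 2.83 (1.64 to 4.21). The ratio was 4.04 without run 2, 1.92 within run 2 and 4.30 with a gate of 3 UMIs.

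These levels rested on few cells. In late microglia 57 of 911 cells held the 579 Spp1 UMIs, 1 cell held 129 of them and the top 4 cells at least 50%. In medium microglia 1 cell held 45 of the 159 Spp1 UMIs and the top 3 cells at least 50%, and the medium over early log2 ratio of 3.59 was 2.51 without run 2 and 0.52 within run 1. For Lpl 101 late cells held 568 UMIs and the top 10 cells held at least 50%, and for Clec7a 60 cells held 179 UMIs, at least 50% of them in the top 13 cells. The cells with these UMIs were deep ones. In the 42 late microglia of at least 5000 UMIs, Spp1 had 1128, Lpl 937 and Clec7a 374 CPM, against 61.2, 36.7 and 20.4 CPM in the 201 late microglia under 1500 UMIs. The 25 late microglia of run 1 had 1750 CPM of Spp1, 1039 of Lpl and 341 of Clec7a, and Spp1 in late microglia was 208 CPM in run 2. With all microglia that also passed the gate of another class left out (188 cells over all stages), the late over early log2 ratios were 4.67 for Spp1, 5.29 for Igf1, 4.45 for Clec7a, 1.84 for Lpl and 2.17 for Cst7. Over the 13 other settings tried, the ratios of the 9 genes stayed above 1.17.

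To allow for depth, each cell was thinned to 1000 UMIs, which left out 51 early and 31 late microglia. At least 1 of the 9 genes without Cd9 was then found in 8.84% of 3597 early (95% Clopper-Pearson interval 7.93 to 9.82), 22.8% of 791 medium (19.9 to 25.8) and 19.7% of 880 late microglia (17.1 to 22.4). Without thinning the shares were 14.3%, 31.0% and 27.1%. At least 3 of the 9 were found in 0.0834%, 2.02% and 3.41% of thinned microglia, and at least 4 in 0 of 3597 early cells, which allows a share of up to 0.103%, in 0.379% of medium and in 2.05% of late cells. The intervals of medium and late microglia thus overlapped for the share with any of these genes, and cells with 4 or more were 18 in the late against 3 in the medium sample. In macrophages the share with at least 1 was 61.5%, 67.1% and 85.7%, and in border or perivascular macrophages 34.5%, 61.1% and 69.0%. CD45+ cells of no class had 26.5%, 55.1% and 63.0%, and neutrophils 74.2%, 42.6% and 69.6%. Each of these shares was above that of microglia of its stage. At least 4 were found in 19.8% of late macrophages and 14.8% of late cells of no class. In T cells the share with at least 1 was 27.9%, 30.1% and 8.33%, and in CD45- oligodendrocytes 0.912%, 0.821% and 2.21%. T cells, which are known to use Cst7 and Lgals3, had 68.5, 158 and 33.8 CPM of the one and 284, 57.5 and 33.8 CPM of the other. Medium T cells also had 273 CPM of Spp1 from 109 UMIs in 22 of 163 cells, above the 87.5 CPM of medium microglia, whereas early T cells had 0 UMIs and late ones 2. How much of these levels is free RNA was not tested. Intervals cover counting error alone, not the spread between animals.

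P2ry12, Tmem119 and Gpr34 are known to be low in the disease-associated state, so that the gate itself may bear on these levels. All CD45+ cells other than lymphocytes, neutrophils and dendritic cells were therefore set in order of their gate UMIs after thinning to 1000 UMIs. In the late sample Spp1 had 850 CPM in cells with 0 gate UMIs, 1261 with 1, 380 with 2 or 3, 35.7 with 4 to 6 and 11.6 with 7 or more. Lpl had 682, 908, 307, 68.2 and 14.5 CPM and Clec7a 441, 424, 152, 19.5 and 11.6 CPM in the same order. Cd9 differed, with 526, 793, 733, 718 and 738 CPM. In each stage the other 9 genes were lower at 7 or more gate UMIs than at 0. The summed macrophage markers also differed along this order, with 1289, 817, 422, 140 and 183 CPM in late cells, and so did the 6 genes of a second set of microglia markers (Cx3cr1, Siglech, Selplg, Sall1, Fcrls and Olfml3), with 2223, 4715, 7954, 11315 and 13250 CPM. In the late sample, cells with 1 gate UMI thus held both the highest Spp1 and Lpl level and an intermediate level of both marker sets, whereas in the early and medium samples both genes were highest at 0 gate UMIs. Whether cells with few gate UMIs were microglia, macrophages or a mix was not tested.

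**Figure D2:**
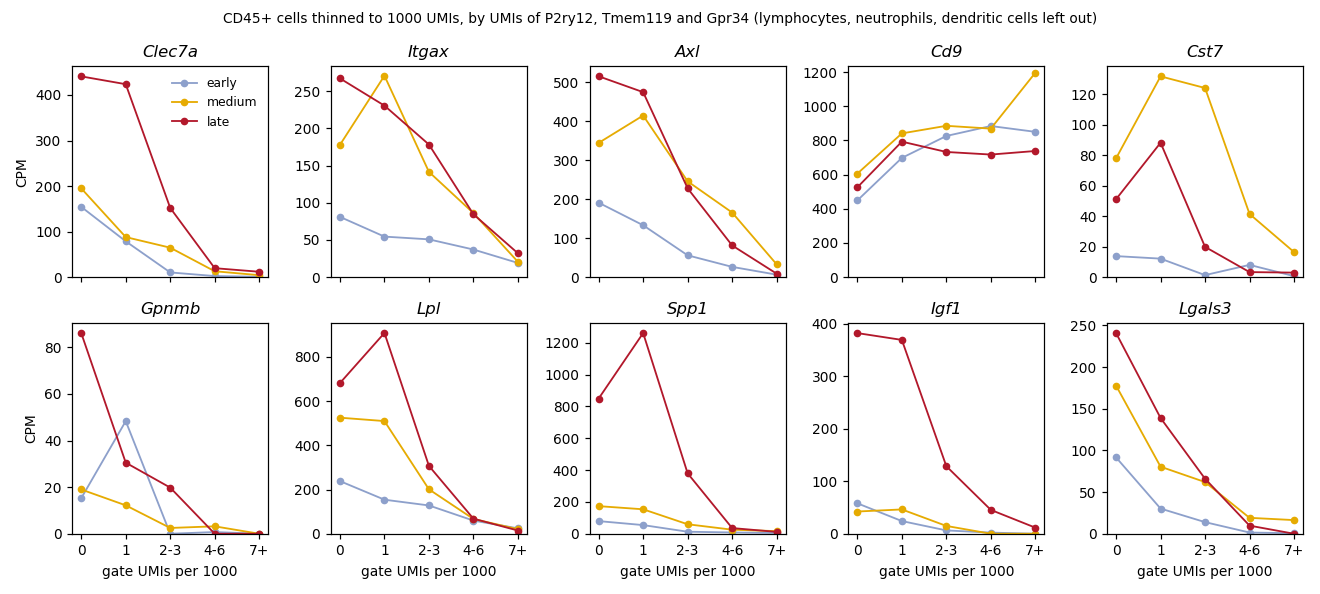
Levels of the 10 genes (CPM, linear axis) in CD45+ cells thinned to 1000 UMIs, by the number of P2ry12, Tmem119 and Gpr34 UMIs among them, for the early (blue), medium (yellow) and late (red) samples. In late cells Spp1 runs from 850 and 1261 at 0 and 1 gate UMIs to 11.6 at 7 or more, whereas Cd9 runs from 526 to 738.

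Macrophages or monocytes were higher than microglia for most of the genes at every stage. Counts of the 2 classes were summed in each tumor sample, which gave 3 pairs. The edgeR quasi-likelihood test was run with tumor sample as a block and Benjamini-Hochberg adjustment. Calls were counted over the 11405 genes tested besides the gate genes of the CD45+ classes. Of the 10 genes 7 were higher in macrophages, where 7.53% of all genes were, and Cd9 was lower, where 8.97% were. With no replicate block 1 of the 9 genes tested was higher. All genes called higher numbered 859 with the block and 548 to 1032 over all settings, that one included. Without the block the 10 genes thus lost a larger part of their calls than all genes did. The median log2 fold change of the 10 was 1.82, against -0.13 for all genes tested. Itgax and Cst7 passed no threshold.

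Lgals3 had 442, 449 and 523 CPM in early, medium and late macrophages and 8.38, 45.7 and 33.9 CPM in microglia. The groups did not overlap, and the log2 fold change was 4.19 (SE 0.41, adjusted p = 7.96e-05, higher in 3 of 3 pairs). Clec7a had 350, 287 and 699 CPM in macrophages, every value above the 4.82, 23.1 and 83.2 CPM of microglia, with a log2 fold change of 4.07 (SE 0.70, adjusted p = 0.0339). This call was lost in 6 of 15 other settings, with adjusted p from 0.0641 to 0.266. Axl had 333, 350 and 614 CPM against 25.6, 168 and 124 CPM and did not overlap either (log2 fold change 2.22, SE 0.49, adjusted p = 0.0297). For these 3 genes early macrophages were above late microglia. Cd9 was the reverse, with 108, 218 and 323 CPM in macrophages, all below the 853, 1049 and 760 CPM of microglia, and a log2 fold change of -2.10 (SE 0.27, adjusted p = 4.82e-05). How many of all genes had classes that did not overlap was not counted.

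For the other 4 the ranges of the classes overlapped, or could not be shown to be apart. For Lpl, Spp1 and Igf1 late microglia exceeded early macrophages. Lpl had 217, 407 and 551 CPM in macrophages (log2 fold change 1.40, SE 0.22, adjusted p = 9.16e-05), and Spp1 had 33.3, 229 and 779 CPM (1.52, SE 0.25, adjusted p = 0.000167), each higher in 3 of 3 pairs. Igf1 had 0, 24.8 and 590 CPM (2.12, SE 0.42, adjusted p = 0.00101) and Gpnmb 0, 5.64 and 169 CPM (2.75, SE 0.81, adjusted p = 0.0232). Both had 0 UMIs in early macrophages, which allows a level of up to 25.0 CPM (3 counts) and covers the 2.54 and 1.14 CPM of early microglia, so that 2 of 3 pairs carried their direction. For Gpnmb that bound also covers the 8.36 CPM of late microglia. Without the late tumor sample Igf1 had a log2 fold change of 0.90 with an adjusted p of 0.591, and Gpnmb was too low to be tested. For Itgax (41.7, 94.8 and 267 CPM in macrophages) the log2 fold change was 0.42 (SE 0.32, adjusted p = 0.426). Cst7 was highest in the medium sample in both classes, with 8.33, 77.8 and 10.5 CPM in macrophages, and had -0.35 (SE 0.44, adjusted p = 0.66).

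**Figure D3:**
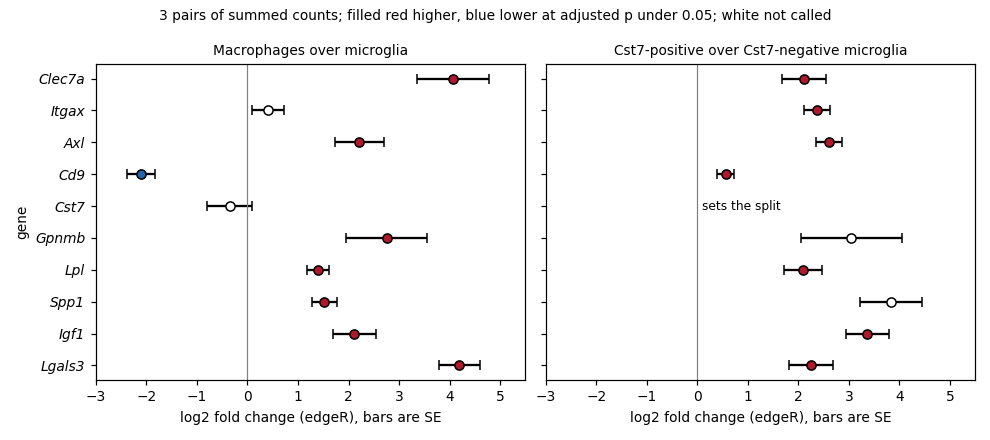
Log2 fold changes of the 10 genes, with their SE, for macrophages over microglia (left) and for microglia with over microglia without Cst7 (right), each from 3 pairs of summed counts. Filled points passed the edgeR test at an adjusted p under 0.05 (red higher, blue lower). On the left Lgals3 and Clec7a lie at 4.19 and 4.07 and Cd9 at -2.10, and on the right Igf1 lies at 3.36 and Cd9 at 0.56.

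This contrast depended on how microglia were drawn. Microglia taken instead by 5 or more UMIs of the second set of markers, a gate chosen after seeing the data, numbered 4262, 1706 and 1450. Macrophages of the 3 stages also had 1292, 958 and 1706 CPM of this second set. Cells of no class, which this gate can take in, had 568, 730 and 714 CPM of the macrophage markers. The part of such cells in the values below was not tested. By the edgeR test 2 of the 10 genes then passed as higher in macrophages, where 4.95% of all genes did, Lgals3 with a log2 fold change of 3.34 (adjusted p = 1.89e-08) and Axl with 1.28 (adjusted p = 0.000127), and 2 as lower, where 6.84% did, Cd9 with -2.08 (adjusted p = 8.88e-18) and Cst7 with -1.18 (adjusted p = 0.0403). Spp1 had 0.17 (adjusted p = 0.764), Lpl 0.17 (0.736), Igf1 0.57 (0.308), Gpnmb 1.13 (0.185) and Clec7a 2.65 (0.266), so that the other 5 genes called with the first gate were not called.

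Genes of the other lists were read in the same test. The homeostatic list, 19 genes of resting microglia outside the gate, comes close to how the classes were drawn, and was lower in macrophages for 18 genes, among them Sparc, an adhesion protein of the matrix (100, 72.2 and 84.3 CPM against 5260, 3885 and 5378 CPM, log2 fold change -5.87, adjusted p = 4.33e-14), Sall1, Crybb1 and the fructose transporter Slc2a5. Of 26 further disease-associated genes 25 were tested, and 6 were higher, 5 lower and 14 not called, where 7.53% of all genes were higher and 8.97% lower. Apoe, the lipid carrier, was higher (8826, 14036 and 35519 CPM against 2292, 4822 and 7871 CPM, log2 fold change 1.84, adjusted p = 2.69e-08), whereas Trem2, the lipid receptor, the growth factor Csf1 and the protease inhibitor Serpine2 were lower, with -1.80, -2.80 and -3.89. The proinflammatory list had 2 genes higher, with Cxcl2 at 3.05, and 6 lower, with Tnf at -4.00, Il1a at -3.95 and Gpr84 at -4.57, and 5 not called. The immediate-early list had 9 of 12 lower (Egr1, -3.71, Jun, -2.47, Nfkbia, -1.68, and Ier2, -1.38) and 3 not called, and the cell cycle list 4 of 12 higher (Tk1, 1.53, Hmgb2, 1.50, and Mki67, 1.25, among them) and 8 not called.

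Within macrophages 9 of the 10 genes had enough UMIs to compare late with early cells, and 6 were at least 2-fold higher, with a median log2 ratio of 1.53 against 0.09 for all genes. The background was high, since 19.4% of 5872 genes were as much higher. Igf1 was at least 23.6-fold and Gpnmb at least 6.74-fold higher in late than in early macrophages, against the floor of 3 counts in the early sample. Spp1 had a log2 ratio of 4.38 (3.17 to 6.44), Itgax 2.55 (1.39 to 4.34), Cd9 1.53 (0.73 to 2.54) and Lpl 1.32 (0.74 to 2.01). These intervals cover counting error alone. Over the 11 other settings Lpl ranged from 0.96 to 3.70, Cd9 from 0.39 to 2.87 and Spp1 from 3.41 to 6.54, each highest without run 3, and 1 early macrophage held 13 of the 26 early Lpl UMIs. Clec7a, Axl and Lgals3, which were high already in early macrophages, had 0.98 (0.51 to 1.51), 0.87 (0.38 to 1.42) and 0.24 (-0.22 to 0.72). In medium over early macrophages 4 of 9 were at least 2-fold higher, where 22.3% of 9242 genes were, and 3 of 9 with Igf1, which had 0 early UMIs, held at its floor. In late over medium macrophages 5 of 10 were at least 2-fold higher, against 12% of 9808 genes, with Gpnmb at 4.78 (3.58 to 6.59) and Igf1 at 4.54 (3.93 to 5.28). Cst7 was lower, at -2.67 (-5.20 to -1.28) from 69 medium and 3 late UMIs, where 15.4% of genes were at least 2-fold lower. The 52 early macrophages gave 1 UMI of Cst7 and 4 of Spp1, so that the intervals of the early ratios are wide.

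The order of the genes over other cell classes was described without a test. It covers classes with at least 50 cells at every stage, besides border macrophages and CD45- microglia, and leaves out natural killer cells, B cells, neutrophils, dendritic cells and ependymal cells. Clec7a was highest in macrophages (445 ± 222 CPM, SD over the 3 tumor samples), then in border or perivascular macrophages (236 ± 111) and CD45+ cells of no class (201 ± 159), which overlap, and lower in microglia (37.0 ± 41.0). In CD45- endothelial and choroid plexus cells it was listed with 0 UMIs. Axl followed a like order among leukocytes (432 ± 158 CPM in macrophages, 329 ± 147 in border macrophages), but fibroblasts or mural cells (239 ± 75.9) and astrocytes (132 ± 32.4) also had it. Igf1 was highest in border or perivascular macrophages (171 CPM in the early sample, 219 in the medium and 751 in the late one), and its mean (380 ± 322) lay above that of macrophages (205 ± 334) by less than their spread. Cd9 was highest in glioma cells or oligodendrocyte progenitors, with 1151, 2344 and 1817 CPM. Among the CD45- classes Spp1 was highest in fibroblasts or mural cells, with 349, 516 and 477 CPM, and had 0 UMIs in oligodendrocytes and in glioma cells or progenitors of all stages. Cst7 was highest in T cells (86.6 ± 63.8 CPM) and had 0 UMIs in 5 CD45- classes.

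Late CD45+ cells of no class had more Spp1 (1209 CPM) and Lpl (875 CPM) than late macrophages (779 and 551 CPM), and 383 CPM of Clec7a and 370 CPM of Igf1. Microglia were also found in the CD45- sort. The 42 late ones had 0 UMIs of Clec7a, Cst7, Gpnmb and Spp1, and 6.67 CPM of Itgax and 30.0 CPM of Lpl, against 118 and 264 CPM in late CD45+ microglia, while Axl had 120 against 124 CPM and Cd9 917 against 760 CPM. The medium ones, 61 cells, had 82.6 CPM of Cst7 from 14 UMIs, against 82.5 CPM in the CD45+ sort, 47.2 against 113 CPM of Itgax and 112 against 130 CPM of Lpl. They had 0 UMIs of Spp1. By counting error alone 0 UMIs allow up to 10.0 CPM in the 42 late and 17.7 CPM in the 61 medium cells. Since in the CD45+ sort few cells held these UMIs (Spp1 in 25 of 791 medium and 57 of 911 late microglia), the 0 values do not show lower levels in the CD45- sort.

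**Figure D4:**
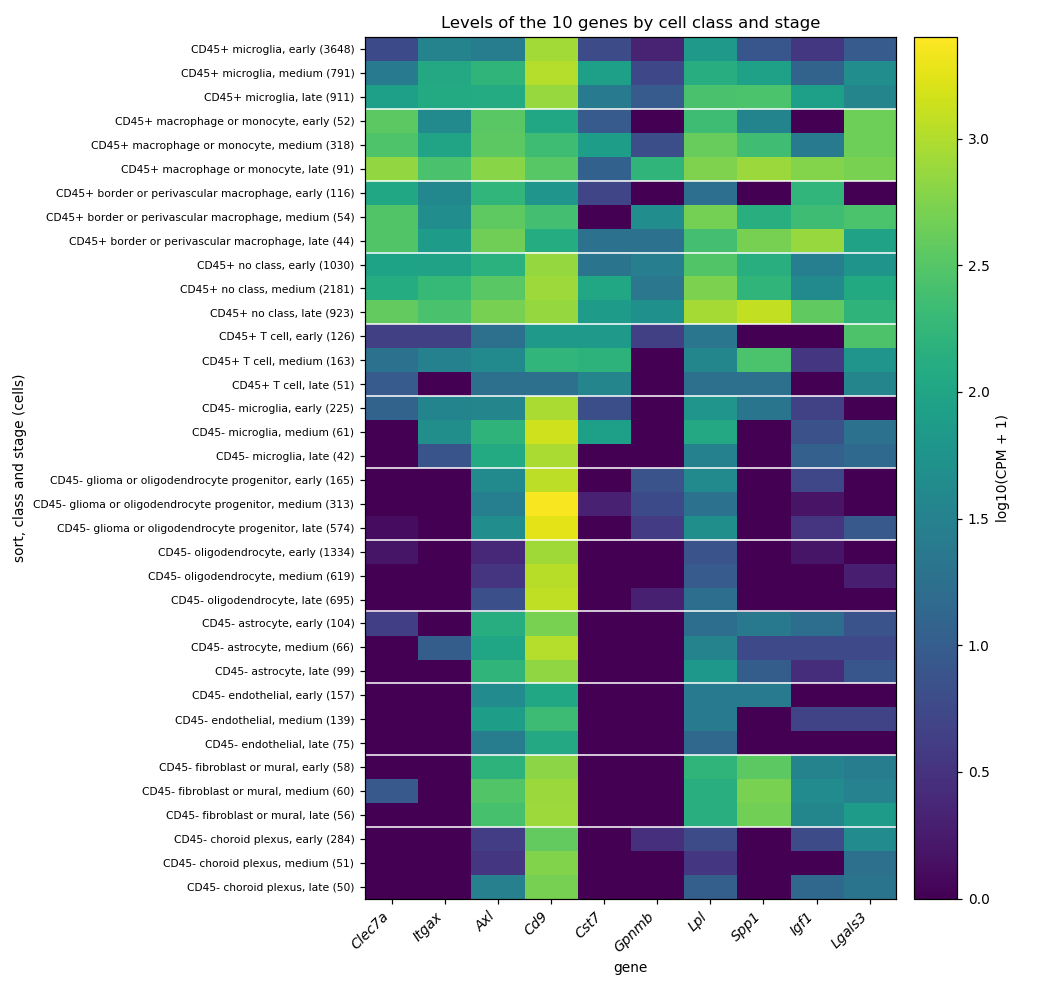
Levels of the 10 genes as log10 of CPM plus 1 (color) in each sort, class and stage with the number of cells in parentheses. Late macrophages and late CD45+ cells of no class are high for Clec7a, Axl, Lpl, Spp1 and Igf1 (Spp1 at 779 and 1209), and Cd9 is high also in CD45- glioma, oligodendrocyte and astrocyte rows.

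To ask which genes were found in the same microglia, cells with a Cst7 UMI were set against cells with none in each tumor sample. There were 29 early, 66 medium and 31 late microglia with Cst7 and 3619, 725 and 880 without. The edgeR test was again run with tumor sample as a block, and calls were counted over the 10024 genes tested besides Cst7 and the microglia gate genes. Of the other 9 genes 7 were higher in cells with Cst7, where 1.48% of all genes were. With no replicate block 0 of the 8 genes tested were higher by edgeR (4 at an unadjusted p under 0.05; DESeq2 was not run without the block). In that setting 15 of all genes were called higher, against 148 with the block. With the block, at an unadjusted p under 0.05 all 9 were higher, and by DESeq2 7 were. The share of all genes at an unadjusted p was not counted, here or below, so that these counts have no background. None of the 9 was lower by either tool or at an unadjusted p. At an adjusted p under 0.05, 1.64% of all genes were called lower by edgeR. Their median log2 fold change was 2.37, against -0.08 for all genes.

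Axl had 266, 436 and 568 CPM in early, medium and late cells with Cst7 and 23.0, 123 and 93.0 CPM in cells without. The groups did not overlap, and the log2 fold change was 2.60 (SE 0.25, adjusted p = 6.76e-14). Itgax had 173, 336 and 475 CPM against 30.2, 76.4 and 92.5 CPM and was apart too, with 2.37 (SE 0.26, adjusted p = 1.65e-11). How many of all genes were apart in this split was not counted. Igf1 had the largest change of those called, with 34.7, 54.0 and 440 CPM against 2.18, 3.85 and 56.7 CPM (3.36, SE 0.43, adjusted p = 2.33e-09), and the groups overlapped because late cells without Cst7 exceeded early cells with it. Lgals3 (57.8, 135 and 106 CPM against 7.83, 30.8 and 28.8 CPM) had 2.26 (SE 0.43, adjusted p = 0.000144) and Clec7a (46.2, 27.0 and 383 CPM against 4.36, 22.5 and 62.1 CPM) 2.11 (SE 0.44, adjusted p = 0.000617). Clec7a was nearly level in the medium sample. Lpl had 80.9, 386 and 1312 CPM against 67.6, 87.3 and 190 CPM (2.10, SE 0.38, adjusted p = 0.0121), so that the early sample, with 7 UMIs in cells with Cst7, contributed little of it.

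Cd9 had 1226, 1362 and 1114 CPM against 849, 997 and 735 CPM, a log2 fold change of 0.56 (SE 0.17, adjusted p = 0.0384). The call of Cd9 was lost in 13 of 18 other settings and its direction turned in 2, while the call of Clec7a was lost in 8 of 17 and that of Lpl in 7 of 17. Spp1 had 11.6, 382 and 2639 CPM in cells with Cst7 and 7.19, 38.5 and 103 CPM in cells without. Its log2 fold change of 3.84 (SE 0.62) was larger than that of the other genes but passed no threshold (adjusted p = 0.0752), and the ratio differed widely between samples, the early one resting on 1 UMI. By DESeq2 its adjusted p was 3.9e-12. Without the late sample its adjusted p was 7.95e-08 and its log2 fold change 2.96, whereas Clec7a then had 1.50 with an adjusted p of 0.636 and Cd9 0.52 with 0.527. Gpnmb, with 3, 0 and 9 UMIs in cells with Cst7, had 3.05 (SE 1.00, adjusted p = 0.0802).

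Depth moved with this split. Cells with Cst7 had median depths of 2900, 3560 and 3723 UMIs against 2026, 1884 and 1995 UMIs, and median gate UMIs of 9, 7 and 6 against 12, 9 and 11. Their summed macrophage markers were 312, 374 and 319 CPM against 152, 329 and 241 CPM, and their neutrophil markers 11.6, 2832 and 3412 CPM against 427, 4224 and 1386 CPM. T cell markers were at 150, 77.2 and 21.3 CPM against 32.1, 53.9 and 46.2 CPM, from 13, 20 and 3 UMIs in cells with Cst7. Natural killer markers were at 104, 0 and 0 CPM against 9.24, 3.85 and 13.9 CPM, from 9 early UMIs. Their part in the result was not tested beyond the following values. Against Cst7-negative cells drawn to match on depth, an alternative chosen after seeing the data, 4 of the 9 genes were higher, against 0.777% of all genes, with log2 fold changes of 1.79 for Axl, 1.73 for Itgax, 3.13 for Spp1 and 2.48 for Igf1. The medium cells were matched in part, at a median of 2536 against 3560 UMIs. With split and sums both made on cells thinned to 1000 UMIs, 11, 26 and 11 cells had Cst7, and Spp1 alone passed, with 3.76 (adjusted p = 6.48e-07), where 0.0762% of all genes were higher, while Cd9 turned to -0.23. With microglia past another gate left out, 8 of 9 passed, against 1.48% of all genes, with Spp1 at 3.86 (adjusted p = 2.5e-29) and Gpnmb at 4.14 (adjusted p = 0.00486), and Cd9 did not (0.51, adjusted p = 0.061).

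Of the further disease-associated genes 16 of 24 tested were higher, against 1.48% of all genes, and 8 were not called (13 higher by DESeq2), with a median log2 fold change of 1.09. With Cst7-negative cells matched on depth 13 of 23 were higher, and with thinned cells 0 of 23 by edgeR (4 higher and 1 lower at an unadjusted p under 0.05; DESeq2 was not run on thinned cells). Fabp5, a carrier of fatty acids, had 57.8, 382 and 724 CPM against 13.5, 75.7 and 76.6 CPM (2.75, SE 0.28, adjusted p = 3.7e-13). Ank, which carries phosphate compounds out of the cell, the lysozyme Lyz2 and Csf1 had log2 fold changes of 1.90, 1.65 and 1.47. The homeostatic list went the other way, with 14 of 19 lower, against 1.64% of all genes, and 5 not called, and with 9 of 18 lower with matched depth and 12 of 18 with thinned cells. Hpgd, which breaks down prostaglandins, had 208, 19.3 and 42.6 CPM against 463, 315 and 331 CPM (-2.46, SE 0.33, adjusted p = 1.85e-06), the lectin Siglech had -1.50, the purine receptor P2ry13 -1.41 and the selectin ligand Selplg -1.22. The immediate-early list was lower for 11 of 12 genes (Jun, -1.85, Jund, -1.36, Fos, -1.30, and Klf6, -1.25), and for 8 of 12 with matched depth and 9 of 12 with thinned cells. Of all genes 51 of 6049 were lower with matched depth and 51 of 6561 with thinned cells, and 0.777% and 0.0762% were higher. The proinflammatory list was lower for 3 of 13 genes, Il1a at -0.97, Nfkbiz at -0.90 and Ccl4 at -0.51, and 10 were not called. By DESeq2 1 gene of this list was higher and 1 lower, with matched depth 1 was lower, and with thinned cells 1 was higher and 1 lower. Of the cell cycle genes 0 of 12 passed the edgeR test or DESeq2, with 2 higher at an unadjusted p under 0.05.

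By a fixed rule, the genes most like Cst7 over cells were the 10 called genes with the largest rise and at least 50 UMIs that were higher in 3 of 3 tumor samples. These were Apoc1, Klrb1b, Igf1, Lyzl4, Pcp4, Postn, Sh3pxd2b, Fabp5, Axl and Itgax. Of them 3 were disease-associated genes named at the outset, as were 7 of the 148 genes called higher. This order was taken from the test above and is no separate support for it. Spp1 had a larger rise, 3.84, but was not called. Apoc1, a small apolipoprotein, had 11.6, 208 and 42.6 CPM against 1.54, 6.42 and 13.9 CPM (3.49, SE 0.62, adjusted p = 3.99e-05). Klrb1b, a lectin receptor of natural killer cells, had 69.4, 23.1 and 49.7 CPM against 4.24, 5.77 and 2.49 CPM (3.46, SE 0.78, adjusted p = 0.00212). Postn, a matrix protein, stood out in the late sample, with 411 against 21.9 CPM, and was level in the medium sample at 3.86 against 3.85 CPM. The same rule for falls gave Gpatch8, Tut4, P2ry10b, Zmym2 and Kdm6a, each with 0 UMIs in all cells with Cst7 and 16.4 to 36.1 CPM in cells without. The size of these falls is not known, and they are not shown to exceed those of other genes. Cells with Cst7 held 86494, 259209 and 140957 UMIs in the early, medium and late samples, so that 0 UMIs allow up to 34.7, 11.6 and 21.3 CPM.

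Microglia were also split on other members. With a split on a Clec7a UMI, 5 members were higher, where 0.974% of all genes were, with log2 fold changes of 2.44 for Axl, 2.25 for Itgax, 3.28 for Igf1, 2.80 for Lgals3 and 2.97 for Spp1. A split on Itgax gave 6, against 1.09% of all genes, and a split on Lpl gave 4, against 1.5%. Cd9 was not called in the splits on Clec7a, Itgax and Lpl, with 0.09, 0.56 and 0.53. Depth moved with these splits too. Cells with Clec7a had early, medium and late median depths of 3290, 3172 and 3669 UMIs against 2026.5, 1927 and 1967 UMIs. The 3 splits were not repeated with matched depth.

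Co-expression was then read cell by cell in thinned microglia. For each pair of genes, the number of cells with both was divided by the number given by the product of the 2 shares within each stage. Of the 36 pairs without Cd9, 25 had at least 1 cell given by the product, and in all 25 more cells held both, with ratios from 2.38 to 9.35 and a median of 4.27. The 9 pairs of Cd9 had ratios from 0.939 to 1.33 with a median of 1.17. A ratio cannot exceed 1 over the larger of the 2 shares, and Cd9 was found in 2392 of 5268 thinned microglia. The ratios of Cd9 were thus bounded low and cannot be set against those of the other pairs. Clec7a had the highest ratios, with Lgals3 (9.35, 12 cells), Igf1 (8.49, 9 cells) and Spp1 (8.38, 14 cells). Lpl with Igf1 had 7.38 (16 cells), Lpl with Clec7a 5.82 (20 cells) and Lpl with Spp1 5.34 (21 cells). Among pairs without Cd9, the largest numbers of cells were those of Axl with Lpl (36 cells), Itgax with Lpl (34 cells) and Itgax with Axl (29 cells).

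**Figure D5:**
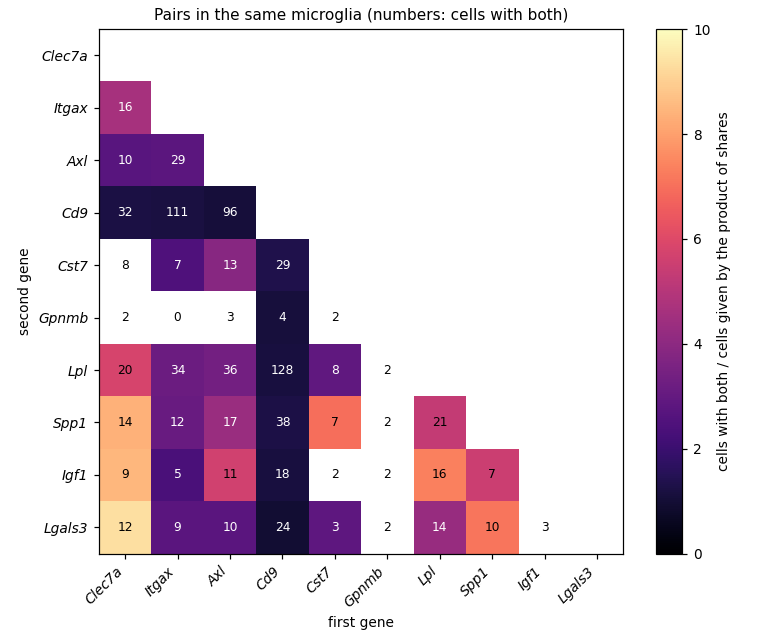
Pairs of the 10 genes in thinned microglia, with the number of cells that hold both written in each square and the ratio of that number to the product of the shares as color (white, under 1 cell given by the product). Clec7a with Lgals3 is highest at 9.35, and the pairs of Cd9, bounded low by its high share of cells, lie from 0.939 to 1.33.

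By stage the medians were 3.16 over 3 pairs in early, 2.66 over 14 pairs in medium and 4.97 over 18 pairs in late microglia. In medium microglia 12 of 14 pairs were above 1, with the lowest at 0.959. With the product taken within stage and run, 26 of 26 pairs were above 1 with a median of 3.69. With microglia past another gate left out, 19 of 19 were, with a median of 3.56. With the product taken within stage and range of the original depth, 28 of 28 were, and the median was 2.27. Depth thus moved with these ratios, and they stayed above 1 within depth ranges. Thinned to 2000 UMIs, which kept 2727 cells, 30 of 31 pairs were above 1 with a median of 2.65. In the 372 medium cells among them 14 of 18 pairs were above 1, with a median of 1.81 and a lowest ratio of 0. These ratios share cells and libraries between pairs and carry no p-value. Pairs of other genes were not set beside them, so that ratios above 1 are not shown to be particular to these genes.

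Other genes of the state were read across stages as well. Of 25 further disease-associated genes measured in late over early microglia, 5 were at least 2-fold higher, against 7.38% of all genes, Apoe, Lyz2, Fabp5, Fabp3 and Ch25h, and the median log2 ratio was 0.20. Apoe had 2292, 4822 and 7871 CPM in early, medium and late microglia, the lysozyme Lyz2 275, 966 and 843 CPM and Fabp5 14.0, 119 and 119 CPM, while Trem2 had 1008, 874 and 958 CPM. Of the 19 homeostatic genes 1 was at least 2-fold lower, the lens protein gene Crybb1 with 492, 356 and 236 CPM, a share near the 4.96% of all genes, and the median log2 ratio was -0.21. The cell cycle list had 9 of 12 genes at least 2-fold higher in late and 11 of 12 in medium over early microglia, against 7.38% and 7.45% of all genes. The proinflammatory list had 1 of 13 higher in late microglia, the chemokine Cxcl13 (157, 1764 and 1233 CPM), and 1 lower, the cytokine Tnf (1112, 980 and 533 CPM), both shares near those of all genes (7.38% higher and 4.96% lower).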

How the data were processed

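Cells of mouse EGFR wild-type gliomas were sorted into CD45+ and CD45- fractions and profiled by inDrop single-cell RNA sequencing in 24 libraries over 3 runs. The authors deposited UMI counts per gene and cell, made with RapMap in bcbio-nextgen against the GRCm38 transcriptome with 3 transgenes added, and a library annotation that gives stage and sort. Cells were called by the authors from empty droplets. Removal of ambient RNA and doublets is described by the study, but whether it came before this table is not stated, and no doublet caller was run. Columns that name other, non-numeric properties of a library were deposited as text and used only as labels. Intervals and floors cover counting error alone.

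Cells with at least 500 UMIs, 500 genes and at most 20% mitochondrial UMIs were kept. The microglia gate took precedence over other classes. Other cells were set in 1 class only where its marker UMIs, divided by its threshold, were at least 2-fold above those of any other class. Thresholds were 50 UMIs for neutrophils, 30 for oligodendrocytes, 20 for choroid plexus and 5 for the others, so that raw marker UMIs of another class could be higher. Class counts were summed per tumor sample and tested with edgeR (version 4.0.16, R 4.3.3) by the quasi-likelihood test with TMM scaling, filterByExpr and tumor sample as a block, and p-values were Benjamini-Hochberg adjusted over all genes. SE is the log2 fold change over the root of F. With 3 samples of 1 tumor stage each, p-values measure the spread between these samples. Gate genes, and Cst7 in its own split, stayed in the fits and the adjustment but were left out of the counts of called genes. Stage ratios add 0.5 counts and have Poisson or binomial intervals, and genes needed 10 UMIs. DESeq2 1.42.0, other gates, depths, splits, scalings and left-out samples were alternatives, 5 of them, the second gate included, chosen after seeing the data. An allele of the model and a microglia marker, left out of the second gate and the lists, are not reported here. Both summed groups of a pair came from the same animals, and the correlations of their deviations were 0.0617, 0.149 and 0.213 for macrophages with microglia and 0.164, 0.177 and 0.157 for cells with and without Cst7.

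On simulated counts, 76.8% of 4-fold and 16% of 2-fold changes were called over 10308 genes for macrophages against microglia, and 68% and 18.2% over 8998 genes for the Cst7 split. The simulation used a fixed dispersion and changed only genes with many UMIs. These shares thus need not hold for scarce genes such as Gpnmb, with 35 UMIs in microglia. The 10 genes and the lists were chosen with earlier results of these data known. All 10 are named, with up to 4 called genes of each list that had the same direction in 3 of 3 tumor samples, by the largest change.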

Additional observations from a re-analysis of the deposited data

How the results depend on the processing

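Across the 13 other settings for late over early and 14 for medium over early microglia, every ratio of the 10 genes kept its direction except Igf1 in medium over early cells, which turned to -0.14 with cells thinned to 1000 UMIs and to -1.51 within run 1, where medium cells had 0 UMIs. The median late over early log2 ratio was 2.70 with a gate of 3 UMIs, 2.85 with the second gate and 2.78 without run 2, against 2.29, and the medium over early one 1.38 within run 1, against 2.19. In macrophages the late over early median over all 10 genes was 2.71 without run 3, against 1.43. Thinned to 2000 UMIs, the median co-detection ratio was 3.46 in late and 2.65 in all microglia, and with macrophages of at least 8 marker UMIs their mean Lgals3 level was 583 CPM.

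For macrophages against microglia, the number of the 10 genes called higher was 2 with the second gate and 1 with no replicate block, against 7, and 5 to 7 with a tumor sample left out, and 2 were called lower with the second gate, against 1. All genes called higher were 548 to 1032 over all settings, the one with no replicate block included, against 859. All genes called lower were 636 by DESeq2, and with a sample left out 548 to 714 were higher and 504 to 790 lower, fewest without the medium sample. Itgax turned to -0.31 with the second gate and lay between -0.13 (without the late sample) and 0.97 with a sample left out, and Cst7 to 0.53 with a gate of 8 UMIs and to 0.35 with no replicate block.

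For cells with against cells without Cst7, the members called higher were 1 with thinned cells, also with mixed cells left out, 4 with matched depth, 4 with the split on Lpl and 0 with no replicate block, against 7. All genes called higher and lower were 47 and 107 with a gate of 8 UMIs, 5 and 51 with thinned cells, 4 and 43 when cells past another gate were also left out, 332 and 337 with the second gate, 47 and 51 with matched depth, 15 and 20 with no replicate block, and 83 and 61 by DESeq2, against 148 and 164. With every gene tested 77 were higher, and the splits on Clec7a, Lpl and Itgax gave 107, 66 and 19 lower. With a tumor sample left out, 66 to 83 genes were higher and 62 to 73 lower. Cd9 turned to -0.23 with thinned cells and to -0.18 with mixed cells left out as well. Unless the setting holds fewer cells or samples by construction, the cause of these differences was not tested.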
